A study of Arabidopsis thaliana with 21 samples.

Results

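The subject is the difference between 2 ways of blocking auxin signalling in root tips of Arabidopsis thaliana. The first block was PEO-IAA, an auxin antagonist, given to Col-0 (the wild type) at 10 µM for 20 min and set against Col-0 given ethanol as mock. The second was AXR3-1, expressed from a transgene that estradiol switches on, in plants given 5 µM estradiol for 2 h and set against Col-0 given the same estradiol. The comparison used 12 of the 21 libraries of the series, 3 for each of these 4 groups, and the effects of the blocks share no library. Plants were 5 days old, and each library was made from RNA of 50 root tips of 1 to 2 mm. The transgenic line, called XVE>>AXR3-1 here, is in the Col-0 background and carries the g1090 promoter. Its tag is given as RFP in the sample labels and as mCherry in the series design. Kind of block, genotype, dose, time and experiment all differ between the 2 effects and cannot be told apart in their difference. The AXR3-1 effect sets a transgenic line against Col-0, and the series holds no such line without induction. What is called the AXR3-1 effect here therefore cannot be told apart from effects of the line itself.

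Auxin is read in the nucleus by TIR1/AFB F-box proteins. They bind auxin together with an Aux/IAA repressor, which is then marked for degradation, so that the auxin response factors (ARFs) it held can activate genes. PEO-IAA occupies the auxin site of the receptor and leaves the Aux/IAA proteins in place. AXR3 is the Aux/IAA protein IAA17, and the AXR3-1 form is stabilised and keeps repressing when auxin is present. Many Aux/IAA genes are themselves targets of ARFs, and in root tips auxin also sets cell elongation and root hair growth.

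The promoters of the genes that both blocks lowered are shown first, since these genes moved together. Each window holds 250 bases before and 50 bases after the annotated start, 5′ to 3′ on the strand of the gene, from RefSeq for assembly TAIR10.1. Capitals mark the auxin response element TGTCTC or its variant TGTCGG, to which ARFs are known to bind, on either strand, so that GAGACA and CCGACA are the reverse strand forms.
IAA1 (AT4G14560, chr4:8360746-8361045, forward strand): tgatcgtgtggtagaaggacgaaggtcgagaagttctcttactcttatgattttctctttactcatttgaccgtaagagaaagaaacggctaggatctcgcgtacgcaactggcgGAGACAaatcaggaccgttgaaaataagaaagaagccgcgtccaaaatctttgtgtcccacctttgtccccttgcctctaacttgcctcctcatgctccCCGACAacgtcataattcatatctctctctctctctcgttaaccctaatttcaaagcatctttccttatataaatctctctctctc
IAA2 (AT3G23030, chr3:8182046-8182345, reverse strand): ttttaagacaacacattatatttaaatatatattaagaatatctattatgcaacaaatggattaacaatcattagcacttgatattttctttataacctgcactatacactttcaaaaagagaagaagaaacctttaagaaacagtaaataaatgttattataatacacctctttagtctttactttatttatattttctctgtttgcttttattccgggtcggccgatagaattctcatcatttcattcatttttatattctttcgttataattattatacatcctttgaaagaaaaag
AUF1 (AT1G78100, chr1:29387422-29387721, forward strand): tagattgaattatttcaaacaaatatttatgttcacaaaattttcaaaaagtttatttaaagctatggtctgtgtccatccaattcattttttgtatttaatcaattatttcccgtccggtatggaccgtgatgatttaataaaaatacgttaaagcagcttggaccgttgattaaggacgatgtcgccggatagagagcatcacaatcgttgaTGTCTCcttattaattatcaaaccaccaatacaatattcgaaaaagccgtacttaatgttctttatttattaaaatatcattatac
AT2G22460 (chr2:9534139-9534438, reverse strand): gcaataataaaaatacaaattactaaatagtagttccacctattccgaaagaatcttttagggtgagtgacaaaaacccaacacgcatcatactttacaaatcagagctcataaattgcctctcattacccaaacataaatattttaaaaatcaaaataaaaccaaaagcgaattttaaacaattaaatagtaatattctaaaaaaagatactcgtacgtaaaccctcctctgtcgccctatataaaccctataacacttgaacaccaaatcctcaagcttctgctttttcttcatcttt
AT1G27670 (chr1:9628700-9628999, reverse strand): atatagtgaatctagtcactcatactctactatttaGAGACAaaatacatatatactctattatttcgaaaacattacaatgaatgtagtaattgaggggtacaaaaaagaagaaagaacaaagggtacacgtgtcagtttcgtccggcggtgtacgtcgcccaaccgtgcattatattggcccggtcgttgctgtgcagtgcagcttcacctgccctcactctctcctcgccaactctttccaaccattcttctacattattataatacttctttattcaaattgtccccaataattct
TGTCTC was found in 3 of these 5 windows (IAA1, AUF1 and AT1G27670) and TGTCGG in 1 (IAA1). Counted from the start, the first base of a match lay at -135 (TGTCTC) and -36 (TGTCGG) in IAA1, at -36 in AUF1 and at -214 in AT1G27670. The windows of IAA2 and AT2G22460 hold neither run of letters.

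Totals were 19.28 to 22.18 M estimated reads per library with PEO-IAA, 18.75 to 20.61 M with mock, 17.45 to 22.04 M in XVE>>AXR3-1 and 21.22 to 22.12 M in estradiol-treated Col-0. AXR3 (AT1G04250), whose count joins the native gene and the transgene, stood at 734, 939 and 1185 CPM (read counts scaled to library size) in XVE>>AXR3-1 and at 175, 146 and 146 CPM in estradiol-treated Col-0, 6.12 times as high (log2 change 2.61 with an SE of 0.39, and an edgeR adjusted p of 9.71e-04). With PEO-IAA it had 133, 155 and 152 CPM, against 124, 137 and 155 CPM with mock (log2 change 0.08, SE 0.37, edgeR adjusted p = 1.00). The 3 libraries of a group are labelled biological replicates. The edgeR p-values set a change against the spread between replicates, estimated for each gene over all 21 libraries of the series.

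A gene was called where its edgeR adjusted p was under 0.05 over all 19809 genes tested. PEO-IAA lowered 7 genes (0.0353% of the genes tested) and raised 0 (0%), with 153 lower (0.772%) and 152 higher (0.767%) at an unadjusted p under 0.05, while DESeq2 called 21 lower and 2 higher. AXR3-1 lowered 266 genes (1.34%) and raised 290 (1.46%). The difference of effects, that is the PEO-IAA log2 change minus the AXR3-1 log2 change, was called for 14 genes, 6 of them above 0 (0.0303%) and 8 below 0 (0.0404%). A total of 5 genes were called lower with both blocks and 0 higher with both in edgeR, where DESeq2 called 15 and 0, and the second tier described below gives the counts at an unadjusted p. No gene was called in opposite directions. Samples with the same replicate number deviated together within each experiment, and with the number as a block the calls were 11 lower with PEO-IAA (0.0555%), 661 lower (3.34%) and 828 higher (4.18%) with AXR3-1, and 139 above 0 (0.702%) and 136 below 0 (0.687%) for the difference. The difference rests on few libraries. Without the block, it was called above 0 for 38 genes without XVE>>AXR3-1 replicate 3 and for 0 without PEO-IAA replicate 2, and below 0 for 13 and 2 genes without XVE>>AXR3-1 replicate 3 and mock replicate 3.

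The 5 genes lowered by both blocks were IAA1, IAA2, AUF1, AT2G22460 and AT1G27670. IAA1 and IAA2 code for Aux/IAA repressors that auxin induces, AUF1 for an F-box protein that auxin induces, AT2G22460 for a MIZU-KUSSEI-like protein and AT1G27670 for an uncharacterized protein. IAA1 had 2.82, 3.49 and 2.64 CPM with PEO-IAA and 27, 23.7 and 21.1 CPM with mock. It had 2.25, 1.99 and 2.94 CPM in XVE>>AXR3-1 and 13.7, 15 and 10.4 CPM in its Col-0. All 6 blocked libraries lay at or below 3.49 CPM and all 6 unblocked ones at or above 10.4 CPM, although the mock libraries were higher than the estradiol-treated Col-0 ones. IAA1 fell 7.99-fold with PEO-IAA (log2 change -3.00, SE 0.32, edgeR adjusted p = 1.80e-04) and 5.41-fold with AXR3-1 (-2.44, SE 0.32, edgeR adjusted p = 4.34e-04). The difference of -0.56 (95% interval -1.50 to 0.37, edgeR adjusted p = 1.00) did not pass.

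IAA2 had 18, 30.2 and 25.4 CPM with PEO-IAA and 106, 104 and 114 CPM with mock. In XVE>>AXR3-1 it had 16.5, 13.3 and 13.0 CPM, and in estradiol-treated Col-0 55.2, 54.2 and 42.7 CPM. The groups did not overlap in either comparison. The log2 changes were -2.15 (SE 0.19, edgeR adjusted p = 2.78e-05) with PEO-IAA and -1.83 (SE 0.19, edgeR adjusted p = 8.56e-05) with AXR3-1, with a difference of -0.32 (95% interval -0.87 to 0.23). AUF1 had 11.8, 16.9 and 19.7 CPM with PEO-IAA and 62.8, 70.7 and 62.2 CPM with mock. It had 11.8, 12.3 and 16.2 CPM in XVE>>AXR3-1 and 45.2, 47.5 and 53.7 CPM in its Col-0. Its blocked levels were alike in both experiments, and its log2 changes were -2.02 (SE 0.29, edgeR adjusted p = 0.0114) and -1.86 (SE 0.29, edgeR adjusted p = 0.00161), differing by -0.16 (95% interval -1.03 to 0.70). Its PEO-IAA call was lost without PEO-IAA replicate 1 or 2.

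AT2G22460 is a low gene. It had 0.396, 0.634 and 0.369 CPM (29 counts in all) with PEO-IAA and 1.94, 2.34 and 3.25 CPM (146 counts) with mock. In XVE>>AXR3-1 it had 0.296, 0.0996 and 0.138 CPM (10 counts), against 4.26, 3.1 and 1.78 CPM (196 counts) in estradiol-treated Col-0. It fell 5.29-fold with PEO-IAA (log2 change -2.40, SE 0.39, edgeR adjusted p = 0.0328) and 17-fold with AXR3-1 (-4.09, SE 0.44, edgeR adjusted p = 1.05e-04), with a difference of 1.69 (95% interval 0.43 to 2.95) that did not pass over all genes (edgeR adjusted p = 0.527). AT1G27670 fell 2.29-fold, to 2.98 ± 0.357 CPM with PEO-IAA against 6.84 ± 0.974 CPM with mock (SD, n = 3 each), at a log2 change of -1.19 (SE 0.20, edgeR adjusted p = 0.0391). With AXR3-1 it fell 2.51-fold, to 3.37 ± 0.546 CPM against 8.49 ± 0.970 CPM (SD, n = 3 each), at a log2 change of -1.33 (SE 0.20, edgeR adjusted p = 0.00110), and the difference was 0.13 (95% interval -0.47 to 0.74). The PEO-IAA calls of AT2G22460 and AT1G27670 each held in only 1 of the 6 fits that left out a PEO-IAA or mock library. Their AXR3-1 calls, and those of the other shared genes, held without any single library. The count of genes lower with both was 2 to 5 over the libraries left out, with 2 without PEO-IAA replicate 1, and was 9 with the replicate block. The genes added by the block were HAT2 and ARF19, a transcription factor of the auxin response and an ARF, AT3G60630, a HAIRY MERISTEM gene of the GRAS family, and AT5G67390.

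**Figure D1:**
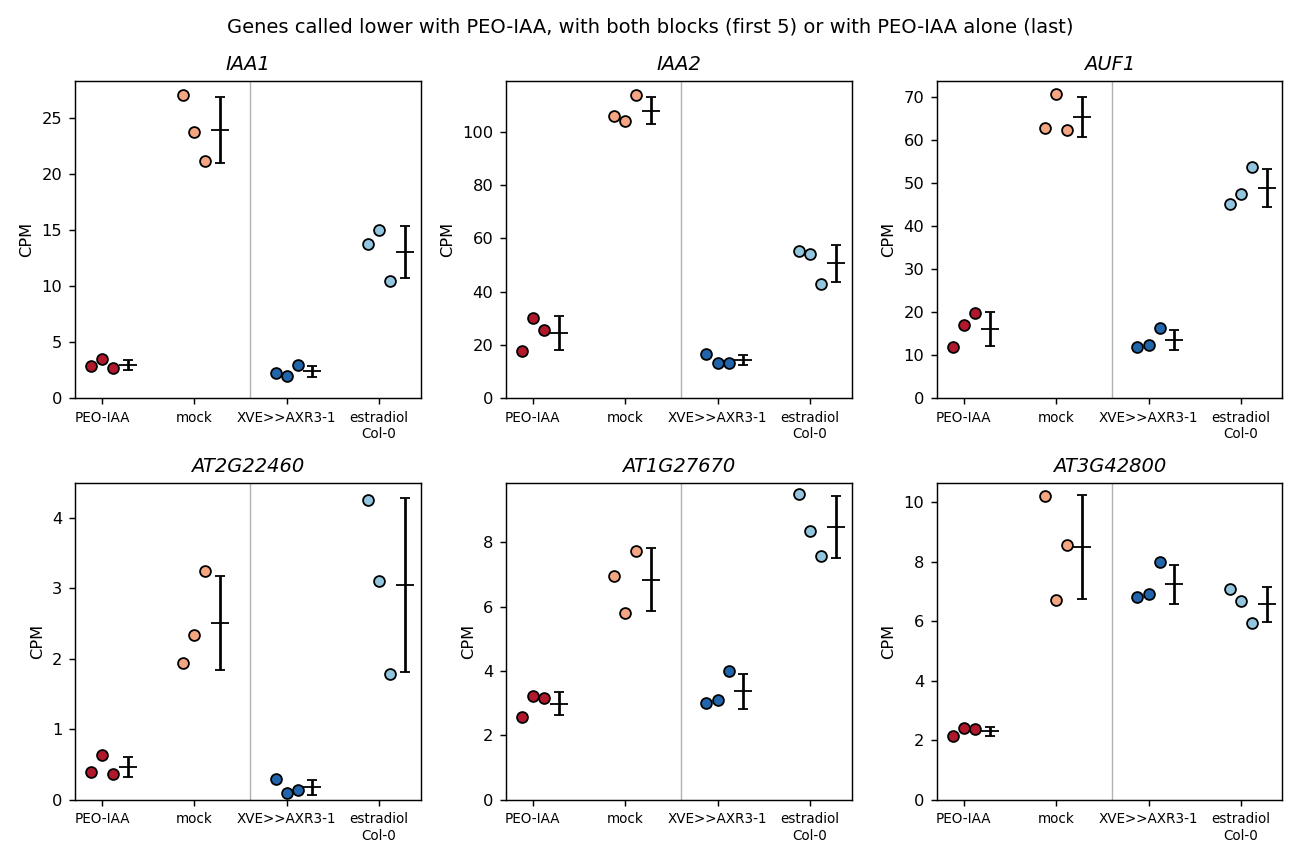
CPM per library (y axis, from 0, a scale of its own for each gene) for the genes called lower with both blocks and for AT3G42800, in PEO-IAA, mock, XVE>>AXR3-1 and estradiol-treated Col-0 root tips (x axis). Points are libraries, and the bar beside them is the mean ± SD (n = 3). The blocked libraries lie below the unblocked ones for the first 5 genes, and AT3G42800 is lower with PEO-IAA alone, at 2.13 to 2.40 CPM.

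Beyond these genes, the PEO-IAA changes of the genes called with AXR3-1 leaned the same way. Of the 266 genes lowered by AXR3-1, 206 (77.4%) had a PEO-IAA estimate below 0, against 48.7% of all genes tested, and 57 (21.4%) were lower with PEO-IAA at an unadjusted p under 0.05, against 0.772%. Of the 290 raised genes, 223 (76.9%) had an estimate above 0, against 51.1% of all, and 27 (9.31%) were higher at that p, against 0.767%. In the other direction 1 raised gene was lower with PEO-IAA at that p and 0 lowered genes were higher. The 57 and 27 genes, called the second tier here, include the 5 genes above. As a share of the 153 and 152 genes that PEO-IAA lowered or raised at that p, they made up 37.3% and 17.8%. Groups did not overlap in either comparison for 55 of the 57 and 15 of the 27, where 2.68% and 2.37% of all genes did not overlap below and above mock with PEO-IAA, and 6.67% and 8.20% below and above Col-0 with AXR3-1. This separation is in large part built in, since the genes were chosen on p-values of the same comparisons. Of all 153 lower and 152 higher genes with PEO-IAA at that p, 86.9% and 65.1% did not overlap. With the replicate block the second tier held 117 and 139 genes. When the block was not used, the second tier fell to 12 higher genes without mock replicate 1 and to 37 lower genes without mock replicate 3. With the block, its lowest counts were 50 higher genes without PEO-IAA replicate 1 and 67 lower genes without XVE>>AXR3-1 replicate 2.

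Which effect is the larger depends on how genes are chosen. The second tier needs an adjusted p for AXR3-1 and only an unadjusted p for PEO-IAA, so its larger AXR3-1 changes are built into the choice and say nothing of the size of either effect. Its median log2 change was -0.91 with PEO-IAA and -1.77 with AXR3-1 for the lower genes, and 0.53 and 1.13 for the higher ones, against 0.00 and -0.01 over all genes. Genes chosen on PEO-IAA alone, at an unadjusted p under 0.05, had medians of -0.89 with PEO-IAA and -0.82 with AXR3-1 for the 153 lower genes, and 0.66 and 0.49 for the 152 higher ones, a choice that favours PEO-IAA. Of these, 123 of the 153 (80.4%) had AXR3-1 estimates below 0, against 53.7% of all genes, and 20 of the 152 (13.2%) did. Over all genes called with AXR3-1, the median PEO-IAA change was -0.17 for the lowered and 0.14 for the raised genes, against -1.41 and 1.02 with AXR3-1. Among lowered genes the share that was also lower with PEO-IAA at an unadjusted p under 0.05 was 6 of 76 where the AXR3-1 log2 change was smaller than 1, 31 of 121 from 1 to 2 and 20 of 69 beyond 2. Among raised genes it was 11 of 140, 12 of 112 and 4 of 38. Across the 556 genes called with AXR3-1, Pearson's r between the log2 changes was 0.57 and Spearman's rho 0.62, and across all 19809 genes r was 0.21. The values over the 556 genes join lowered and raised genes, chosen to lie apart on the AXR3-1 axis. Within the 266 lowered genes r was 0.39 and rho 0.41, and within the 290 raised genes 0.19 and 0.21. Genes of a library share its depth and scaling and are not independent replicates.

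**Figure D2:**
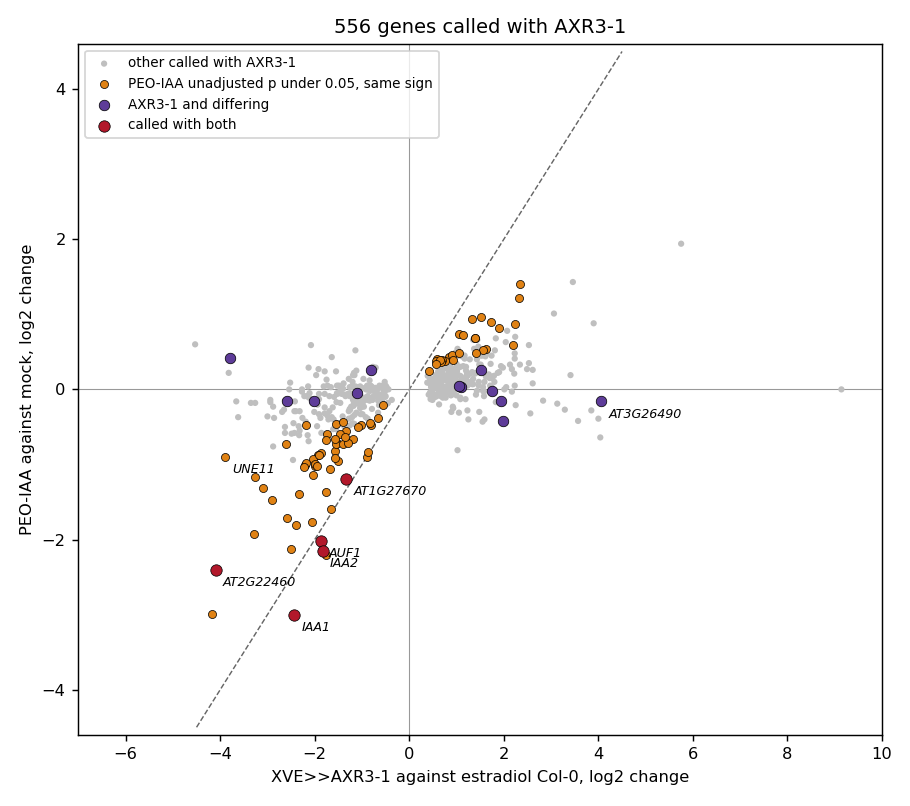
Log2 change with AXR3-1 (x axis) against log2 change with PEO-IAA (y axis) for the 556 genes called with AXR3-1, with a dashed line where they are equal. Red points are the 5 genes called with both, orange points the rest of the second tier and purple points the genes changed by AXR3-1 alone. UNE11, whose changes also differ, is in the second tier and is orange. Most points lie closer to 0 on the y axis than on the x axis, on which the genes were chosen. The point at 9.14 is AT1G64795, which had 0 counts in all groups plotted except XVE>>AXR3-1.

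Lower members of the second tier included auxin genes of several kinds. IAA4, another Aux/IAA gene, had 21.8, 32.2 and 27.1 CPM with PEO-IAA and 45.6, 48.9 and 51.1 CPM with mock, and 22.8, 17.8 and 24.3 CPM in XVE>>AXR3-1 against 43.1, 39.6 and 36.8 CPM in its Col-0. These levels separated in both comparisons, which the choice of named second-tier genes required. The log2 changes were nearly equal, at -0.84 (SE 0.17, edgeR unadjusted p = 8.48e-05, adjusted p = 0.153) and -0.88 (SE 0.17, edgeR adjusted p = 0.00591), with a difference of 0.04 (95% interval -0.46 to 0.54). AT5G62280, a DUF1442 family gene, averaged 12.5 ± 0.809 CPM with PEO-IAA and 42.5 ± 5.75 CPM with mock (SD, n = 3 each), and 6.97 ± 1.27 CPM in XVE>>AXR3-1 against 29.1 ± 4.36 CPM. Its log2 changes were -1.76 and -2.06, and the first missed the threshold (edgeR adjusted p = 0.0981). AT5G66580, which is uncharacterized, changed by -2.21 and -1.76 (edgeR adjusted p = 0.188 and 0.0431), and the second call was lost without any 1 of the 6 libraries. AT1G60010 was close in size with both (-0.90 and -0.89), and its AXR3-1 call held in 2 of 6 fits that left out a library. AT5G67390, annotated as glycosyltransferase-like (-1.02 and -1.95), AT5G38790 (-1.14 and -2.03), AT1G76220 (-1.80 and -2.39) and AT4G35210 (-2.99 and -4.18) had larger AXR3-1 estimates. AT5G67390 was called with PEO-IAA under the replicate block (edgeR adjusted p = 0.0123), and so was its difference of 0.92 (edgeR adjusted p = 0.0336), so that it was lowered by both to unequal extents.

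Higher members were led by AT4G34810, a SAUR gene. It had 17.1, 12.4 and 18.1 CPM with PEO-IAA and 9.25, 6.52 and 9.04 CPM with mock, and 64.9, 44.9 and 34.5 CPM in XVE>>AXR3-1 against 26.8, 15.4 and 15.5 CPM in its Col-0. Both pairs of groups stood apart, as the choice of named genes required. The log2 changes were 0.94 (SE 0.25, edgeR unadjusted p = 0.00166, adjusted p = 0.966) and 1.32 (SE 0.25, edgeR adjusted p = 0.00556). YUC8, a flavin monooxygenase gene of auxin synthesis, had 20.6, 10.7 and 15.3 CPM with PEO-IAA and 8.47, 8.46 and 8.61 CPM with mock. In XVE>>AXR3-1 it had 63.1, 68.7 and 46.0 CPM, against 13.7, 13.2 and 10.7 CPM in estradiol-treated Col-0. The AXR3-1 rise was 4.73-fold (log2 change 2.24, SE 0.29, edgeR adjusted p = 3.28e-04) and the PEO-IAA estimate 0.87 (SE 0.28, edgeR adjusted p = 1.00), with a difference of -1.37 (95% interval -2.22 to -0.52, edgeR adjusted p = 0.316). LBD25, a LOB domain transcription factor gene, had estimates of 1.22 and 2.33, DIN9, a mannose-6-phosphate isomerase gene, 0.74 and 1.05, AT3G22250, a UDP-glycosyltransferase gene, 1.40 and 2.34, JAR1, which codes for the enzyme that joins jasmonate to isoleucine, 0.25 and 0.41, AT2G40095 0.38 and 0.76, and SIP4, a protein kinase gene, 0.40 and 0.59. The AXR3-1 call of SIP4 was lost without any 1 of its 6 libraries, and that of DIN9 and of AT3G22250 without 3 of them each.

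Genes changed by AXR3-1 alone were taken as those called with AXR3-1, called for the difference, and not changed by PEO-IAA even at an unadjusted p under 0.05. There were 12 of them, 7 higher and 5 lower. AT3G26490, an NPH3 family gene related to phototropism regulators, had 24.8, 23.7 and 13.1 CPM in XVE>>AXR3-1 against 1.09, 1.46 and 1.11 CPM in its Col-0. With PEO-IAA it had 0.544, 0.679 and 0.422 CPM and with mock 0.484, 0.662 and 0.704 CPM. It was thus low in all but the XVE>>AXR3-1 libraries, rose 16.7-fold there (log2 change 4.06, SE 0.43, edgeR adjusted p = 8.56e-05) and differed by -4.22 (SE 0.62, edgeR adjusted p = 0.0161). AT2G46890, annotated as a steroid 4-dehydrogenase, had 116, 88.8 and 87.7 CPM in XVE>>AXR3-1 and 32.1, 27.1 and 27.7 CPM in its Col-0, with 22.6, 23.1 and 28.6 CPM with PEO-IAA and 25.6, 19.4 and 30.5 CPM with mock. Its log2 changes were 1.75 (SE 0.17) with AXR3-1 and -0.02 (SE 0.17) with PEO-IAA, and the difference of -1.77 (SE 0.24, edgeR adjusted p = 0.00844) was called without any 1 of the 12 libraries.

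LRX3, a cell wall leucine-rich repeat extensin gene, averaged 178 ± 10.1 CPM in XVE>>AXR3-1 and 62.6 ± 3.24 CPM in its Col-0, and 99.2 ± 16.1 CPM with PEO-IAA against 83.1 ± 12.5 CPM with mock (SD, n = 3 each). Its change was 2.85-fold with AXR3-1 (edgeR adjusted p = 8.56e-05) and 1.19-fold with PEO-IAA (95% interval of the log2 difference -1.72 to -0.79, edgeR adjusted p = 0.0372). IQD12, which codes for a calmodulin-binding IQD protein, averaged 88.9 ± 19.7 CPM in XVE>>AXR3-1 against 23.1 ± 3.70 CPM (SD, n = 3 each), with 12.9 ± 2.01 CPM with PEO-IAA and 14.4 ± 2.52 CPM with mock. SCPL11, a serine carboxypeptidase-like gene, averaged 208 ± 16.0 CPM against 97.1 ± 3.23 CPM, and 97.2 ± 10.1 CPM with PEO-IAA against 95.4 ± 16.9 CPM with mock. AT1G73780, a lipid-transfer protein family gene, and AT5G18460, annotated as a peptidase, rose 3.95-fold and 2.07-fold with AXR3-1. The differences of IQD12, SCPL11, AT1G73780 and AT5G18460 were -2.11, -1.07, -2.40 and -1.01, with edgeR adjusted p between 0.0342 and 0.0372.

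Among the lower genes, TBL21, of the TRICHOME BIREFRINGENCE-LIKE family that acetylates wall polysaccharides, had 8.95, 7.67 and 9.05 CPM in XVE>>AXR3-1 and 18.1, 20.3 and 17 CPM in its Col-0. With PEO-IAA it had 18.7, 21.8 and 17.3 CPM and with mock 18.5, 20.0 and 21.5 CPM, so only the XVE>>AXR3-1 libraries stood below the rest. The log2 changes were -1.11 (SE 0.12) and -0.05 (SE 0.11), with a difference of 1.06 (SE 0.16, edgeR adjusted p = 0.0243). ROPGEF4, which codes for an activator of ROP GTPases, fell 1.74-fold with AXR3-1 (log2 change -0.80, SE 0.13, edgeR adjusted p = 0.00166) and had a PEO-IAA estimate of 0.26 (SE 0.13, edgeR unadjusted p = 0.0504), with a difference of 1.07 (edgeR adjusted p = 0.0342). AT1G52190, a major facilitator superfamily transporter gene, averaged 2.66 ± 1.21 CPM in XVE>>AXR3-1 against 10.9 ± 0.633 CPM, and 13.3 ± 1.39 CPM with PEO-IAA against 14.8 ± 3.27 CPM with mock (SD, n = 3 each). ACS2, which codes for an enzyme of ethylene synthesis, had 0.237, 0.398 and 0.781 CPM in XVE>>AXR3-1 and 2.53, 3.81 and 2.41 CPM in its Col-0, and differed by 2.43 (SE 0.42, edgeR adjusted p = 0.0372). AT3G58000, a VQ motif gene, had only 9 counts in XVE>>AXR3-1, where its Col-0 had 141, and 132 with PEO-IAA against 93 with mock, and is named after its values were seen because it was under the level needed for naming.

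These calls for the difference were less secure than the AXR3-1 calls of the same genes. Of the named genes, AT2G46890 held its difference call in all 12 fits that left out a library, AT3G26490 in 7, LRX3, SCPL11, AT5G18460 and TBL21 in 3 each, AT1G73780, IQD12 and ROPGEF4 in 2 each and AT1G52190 and ACS2 in 1 each, and the sign was kept in every one. Their AXR3-1 calls held in all 6. With the replicate block, 122 higher and 120 lower genes met the rule, including 6 of the 7 and all 5, LRX3 dropping out although its difference remained called (edgeR adjusted p = 0.00511). The blocked counts fell to 12 higher genes without XVE>>AXR3-1 replicate 1 and to 5 lower genes without PEO-IAA replicate 2.

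**Figure D3:**
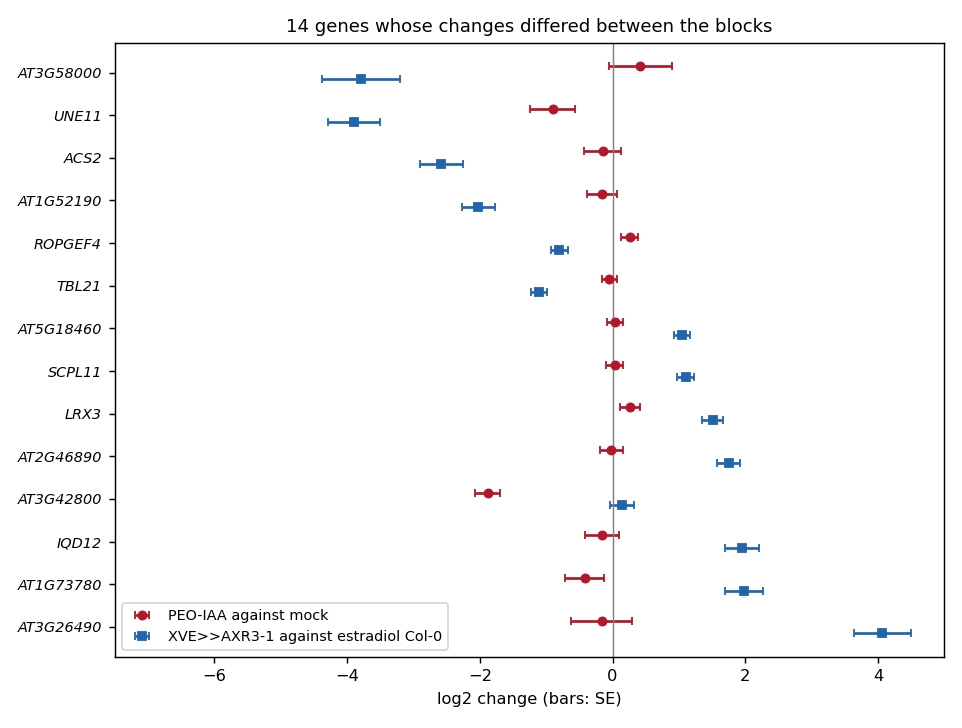
Log2 changes (x axis, bars are SE) with PEO-IAA (red circles) and with AXR3-1 (blue squares) for the 14 genes called for the difference (y axis), ordered from the highest to the lowest difference. For 12 of them the blue square lies far from 0 and the red circle near it, AT3G42800 shows the reverse, and UNE11 lies below 0 with both.

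Of the other 2 genes called for the difference, 1 had estimates below 0 with both blocks, to unequal extents. UNE11, of the pectin methylesterase inhibitor family, had 33.0, 47.7 and 35.0 CPM with PEO-IAA and 61.2, 76.2 and 78.8 CPM with mock, against 2.90, 2.19 and 8.50 CPM in XVE>>AXR3-1 and 72.9, 65.1 and 67.8 CPM in its Col-0. It fell 15-fold with AXR3-1 (log2 change -3.90, SE 0.39, edgeR adjusted p = 8.56e-05), its PEO-IAA estimate was -0.90 (SE 0.34, edgeR unadjusted p = 0.0161, adjusted p = 1.00), and the difference was 3.00 (SE 0.50, edgeR adjusted p = 0.0342).

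Of the 7 genes lowered by PEO-IAA, 2 were not called with AXR3-1. AT3G42800, annotated as AF-like, had 2.13, 2.40 and 2.37 CPM with PEO-IAA and 10.2, 6.72 and 8.55 CPM with mock, but 6.81, 6.92 and 8.00 CPM in XVE>>AXR3-1 and 7.08, 6.69 and 5.93 CPM in its Col-0. Only the PEO-IAA libraries were low. The log2 changes were -1.88 (SE 0.19, edgeR adjusted p = 9.50e-05) and 0.14 (SE 0.18, edgeR adjusted p = 1.00), and the difference of -2.02 (SE 0.25, edgeR adjusted p = 0.00643) was called without any 1 of the 12 libraries. AT3G51410, a gene of the family named DUF241, had 12 counts with PEO-IAA and 147 with mock (log2 change -3.62, SE 0.54, edgeR adjusted p = 0.0141), and 20 counts in XVE>>AXR3-1 against 65 in its Col-0 (-1.56, SE 0.51, edgeR adjusted p = 0.153). Its libraries did not overlap in either comparison, and its difference of -2.06 (95% interval -3.67 to -0.45) did not pass (edgeR adjusted p = 0.587), so it is not shown to be particular to PEO-IAA. Its PEO-IAA call held in 2 of 6 fits that left out a library.

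Auxin signalling genes were taken by role. In this and the other lists, counts with the replicate block are read against the shares of all genes with that block. These were 3.34% lower and 4.18% higher with AXR3-1, and 0.702% above and 0.687% below 0 for the difference. Of 26 Aux/IAA genes other than AXR3, AXR3-1 lowered 12 (1.34% of all genes) and raised 0 (1.46%), with a list median log2 change of -0.94, and with the replicate block 13 were lower and 1, IAA28, higher. PEO-IAA lowered 2 (0.0353%), with 7 lower at an unadjusted p under 0.05 (0.772%) and a median of -0.45. The difference was called for 0 of them in edgeR, with 4 above and 1 below 0 at an unadjusted p under 0.05 (2.30% and 2.40% of all genes), and for 2 (IAA9 and IAA16) with the replicate block. The estimates of the members were not all in the same proportion. IAA1, IAA2 and IAA4 had changes of like size with both blocks, and so did IAA6 (-2.05 and -1.94), which was called with neither, and with AXR3-1 only under the replicate block. IAA7, IAA9, IAA12 and IAA16 were called with AXR3-1 and had PEO-IAA estimates from -0.29 to 0.00. IAA16 had 40.8, 41.3 and 95 CPM in XVE>>AXR3-1 and 315, 332 and 310 CPM in its Col-0, with 185, 255 and 227 CPM with PEO-IAA and 235, 297 and 281 CPM with mock. Its difference was 2.15 (95% interval 1.11 to 3.19, edgeR adjusted p = 0.125, and 0.0302 with the replicate block). IAA10, IAA11, IAA13, IAA14 and IAA19 lay between, with AXR3-1 changes from -1.51 to -1.26 and PEO-IAA estimates from -0.95 to -0.45.

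Of the 5 GH3 genes tested, whose enzymes conjugate auxin to amino acids, 1 (GH3.5) was lowered by AXR3-1, to 4.97 ± 1.31 CPM against 13.2 ± 2.86 CPM (SD, n = 3 each), at a log2 change of -1.40 (SE 0.27, edgeR adjusted p = 0.00682), and the PEO-IAA estimate was -0.73 (edgeR adjusted p = 1.00). All 5 estimates were below 0 with each block, as were 48.7% of all with PEO-IAA and 53.7% with AXR3-1. The replicate block called 4 lower with AXR3-1 (3.34% of all genes). Of 16 auxin-regulated transcription factor genes, 0 were called with either block in edgeR, while 6 were lower with AXR3-1 and 5 with PEO-IAA at an unadjusted p under 0.05 (4.53% and 0.772% of all genes), and the list median was -0.63 with AXR3-1 and -0.53 with PEO-IAA. HAT2, a homeodomain-leucine zipper gene, had 40.8, 28.9 and 31.7 CPM with PEO-IAA and 72.7, 58.3 and 57.2 CPM with mock, and 24.9, 22.6 and 30.6 CPM in XVE>>AXR3-1 against 43.7, 36.3 and 38.5 CPM. Its levels stood apart in both comparisons, and its calls with both came with the replicate block only (edgeR adjusted p = 0.00866 with PEO-IAA and 0.00389 with AXR3-1).

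Of 16 auxin transport genes, AXR3-1 lowered 4 (1.34% of all genes) and raised 0, and the replicate block added PIN2. The 4 were PIN3 and PIN7, efflux carriers, and WAG1 and WAG2, kinases that act on PIN proteins. PEO-IAA called 0, with 4 lower at an unadjusted p under 0.05 (0.772%), namely PIN3, WAG1, WAG2 and the kinase gene PID. WAG2 had 10.1, 8.47 and 7.06 CPM with PEO-IAA and 22.8, 21.5 and 27 CPM with mock, and 1.6, 1.59 and 1.29 CPM in XVE>>AXR3-1 against 7.88, 14.8 and 11.1 CPM in its Col-0. It fell 7.54-fold with AXR3-1 (log2 change -2.91, SE 0.50, edgeR adjusted p = 0.00334), and its PEO-IAA estimate was -1.47 (SE 0.45, edgeR adjusted p = 1.00). PIN3 changed less, by -0.66 with AXR3-1 (edgeR adjusted p = 0.00203), with a PEO-IAA estimate of -0.38. Of 19 receptor and ARF genes, AXR3-1 lowered 3 (1.34% of all genes), the receptor gene AFB1 and the repressing ARFs ARF10 and ARF16, and ARF9 was added by the replicate block. With PEO-IAA 0 passed, also at an unadjusted p under 0.05. ARF16 averaged 11.9 ± 3.34 CPM in XVE>>AXR3-1 against 31.7 ± 4.92 CPM, and 23.4 ± 3.33 CPM with PEO-IAA against 30.1 ± 2.42 CPM with mock (SD, n = 3 each). The differences of AFB1, ARF10 and ARF16 were 0.59, 0.82 and 1.05, called with the replicate block (edgeR adjusted p = 0.0254, 0.0312 and 0.0196) and not without it (0.453, 0.296 and 0.262).

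Auxin synthesis genes moved both ways. Of 9 tested, AXR3-1 raised 2 (1.46% of all genes), YUC5 and YUC8, to which the replicate block added YUC7 and YUC9. AXR3-1 lowered 1 (1.34%), TAA1, which codes for the tryptophan aminotransferase at the head of the pathway. At an unadjusted p under 0.05, 5 were higher (5.74%) and 1 lower (4.53%) with AXR3-1. With PEO-IAA 2 were higher (0.767%) and 1 lower (0.772%) at that p. The list median was 1.71 with AXR3-1 and 0.39 with PEO-IAA. TAA1 had 16.4, 24.1 and 20.7 CPM with PEO-IAA and 31.2, 36.4 and 44.2 CPM with mock, and 8.71, 9.36 and 10.2 CPM in XVE>>AXR3-1 against 32.2, 39.5 and 34.7 CPM. It was lower in all blocked libraries, fell 3.77-fold with AXR3-1 (log2 change -1.91, SE 0.21, edgeR adjusted p = 1.25e-04) and had a PEO-IAA estimate of -0.87 (SE 0.21, edgeR unadjusted p = 5.46e-04, adjusted p = 0.503). Of 42 SAUR genes, small auxin-responsive genes, AXR3-1 raised 4 (1.46% of all genes) and lowered 2 (1.34%), and PEO-IAA called 0, with 4 lower (0.772%) and 2 higher (0.767%) at an unadjusted p under 0.05. With the replicate block 8 were higher (4.18% of all genes) and 4 lower (3.34%) with AXR3-1. The differences of AT1G43040 and AT4G34800, at -2.02 and -1.07, were then called (edgeR adjusted p = 0.0314 and 0.0484), where 0.687% of all genes were called below 0. The list median was -0.33 with AXR3-1 and -0.08 with PEO-IAA. AT4G34790, AT4G34800 and AT4G34810 were raised and are neighbouring, similar genes whose reads may be shared, and AT1G72430 was lowered (log2 change -1.33, edgeR adjusted p = 5.26e-04, with a PEO-IAA estimate of -0.56).

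Root hair genes were called with AXR3-1 and not with PEO-IAA. Of 18 tested, AXR3-1 lowered 7 (1.34% of all genes) and raised 0, and the replicate block added LRX1 and MRH1. With PEO-IAA 0 passed at an unadjusted p under 0.05, a level at which 0.772% of all genes were lower, so that a count of 0 among 18 is near the background, and the list medians were -0.82 with AXR3-1 and 0.05 with PEO-IAA, against -0.01 and 0.00 for all genes. The 7 were the regulators RHD6, RSL2 and RSL4 and the wall or growth genes EXPA7, EXPA18, COBL9 and MRH6. MRH6 had 2.96, 6.57 and 10.5 CPM in XVE>>AXR3-1 and 29.7, 31.3 and 36.3 CPM in its Col-0, but 26.7, 35.0 and 26.4 CPM with PEO-IAA and 22.1, 33.3 and 32.9 CPM with mock. The XVE>>AXR3-1 libraries alone were low, at a log2 change of -2.27 (SE 0.37, edgeR adjusted p = 0.00203), where the PEO-IAA estimate was 0.00 in size (SE 0.35). RHD6 had 5.39, 9.41 and 14.7 CPM in XVE>>AXR3-1 and 26, 21.7 and 28.7 CPM in its Col-0, and 28.6, 28.8 and 27.5 CPM with PEO-IAA against 25.6, 33.7 and 29.7 CPM with mock. RSL4, which drives hair elongation, had 2.78, 2.39 and 5.42 CPM in XVE>>AXR3-1 and 15.2, 18.9 and 19.6 CPM in its Col-0, and 8.21, 15.2 and 13.0 CPM with PEO-IAA against 15, 19.9 and 20.5 CPM with mock. It fell 5.03-fold with AXR3-1 (edgeR adjusted p = 0.00338), and its PEO-IAA estimate of -0.61 (SE 0.38) did not pass.

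The difference was called for 0 of the 18 root hair genes without the block, where 8 were above 0 at an unadjusted p under 0.05 (2.30% of all genes), and for 5 with it (0.702%), namely RHD6, RSL2, EXPA7, COBL9 and MRH6. The list median of the difference was 0.98, against 0.01 over all genes, and the summed level of the list was 833 to 1105 CPM with PEO-IAA and 691 to 1006 CPM with mock, and 407 to 647 CPM in XVE>>AXR3-1 against 745 to 919 CPM in its Col-0. Without XVE>>AXR3-1 replicate 2, the AXR3-1 call of EXPA7 was lost. In bulk tips, fewer cells of a type and less RNA per cell cannot be told apart, and estradiol was given for 2 h where PEO-IAA was given for 20 min. The marker lists of other cell types held few members, and their calls are read against 1.34% lower and 1.46% higher of all genes. With AXR3-1, 0 of 12 cell division, 0 of 8 endodermis, 0 of 6 xylem, 0 of 6 phloem, 0 of 7 non-hair epidermis and 0 of 5 green tissue genes were called, 1 of 8 stem cell niche genes was (JKD, lower), and of 6 root cap genes BRN1 was higher and BRN2 lower, the calls of JKD and BRN1 holding in 1 of 6 fits each. The summed level of the cell division list was 313 to 332 CPM in XVE>>AXR3-1 and 295 to 340 CPM in its Col-0. With the replicate block, 2 non-hair epidermis, 2 root cap, 1 endodermis and 1 stem cell niche genes were lower with AXR3-1 (3.34% of all genes). Higher with the block were 1 non-hair epidermis, 1 root cap and 1 green tissue gene (4.18%). The part of these genes in the result was not tested.

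**Figure D4:**
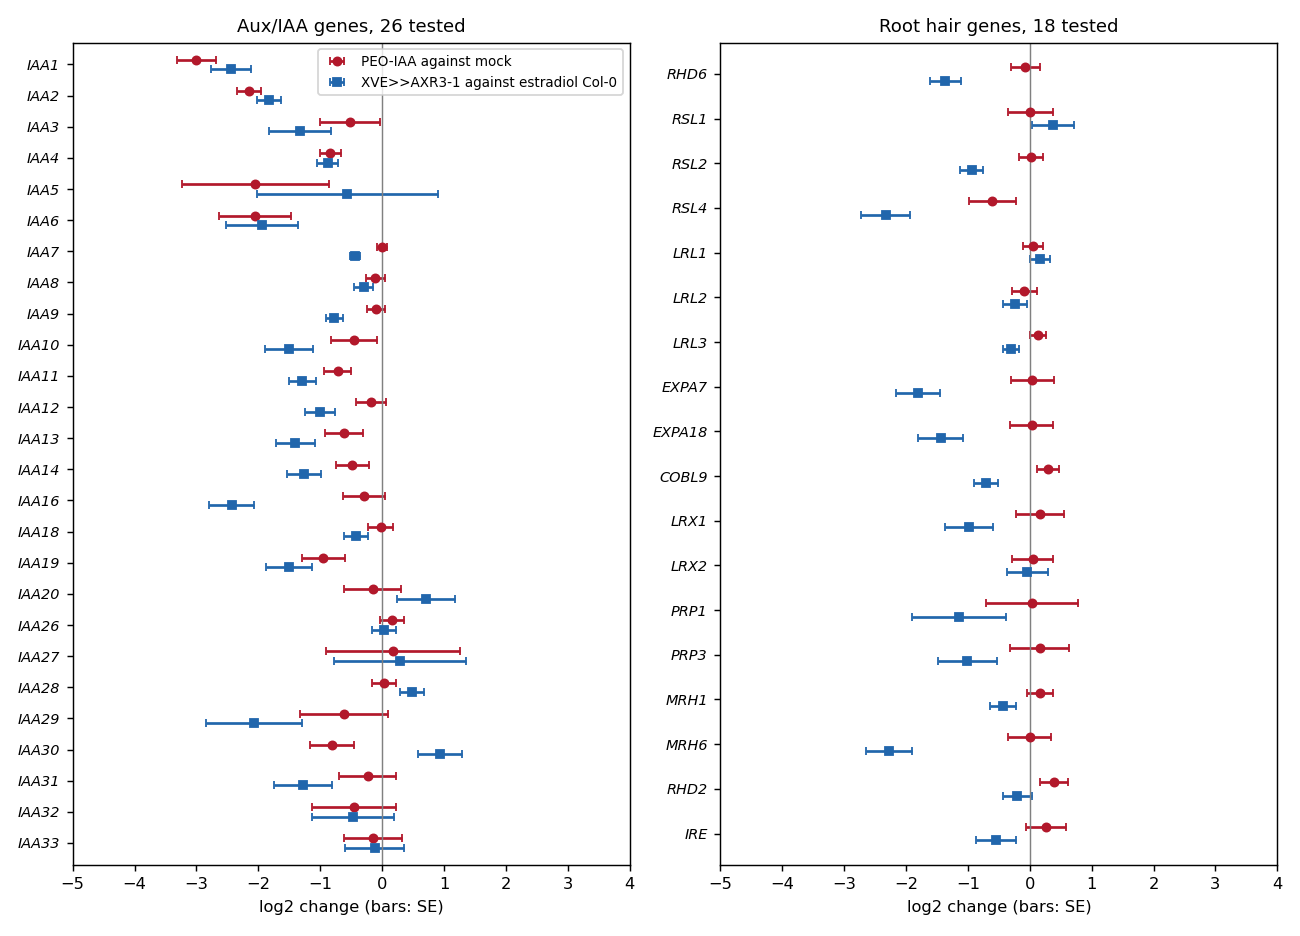
Log2 changes (x axis, bars are SE) with PEO-IAA (red circles) and AXR3-1 (blue squares) for the 26 Aux/IAA genes and the 18 root hair genes tested (y axis). IAA1, IAA2 and IAA4 are lower with both, with list medians of -0.45 and -0.94, and the root hair genes have PEO-IAA changes about 0 and AXR3-1 changes mostly below it, with list medians of 0.05 and -0.82.

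Other hormone and growth lists held no call with PEO-IAA, and their AXR3-1 calls stand beside 1.34% lower and 1.46% higher of all genes. GA3OX1, a gibberellin synthesis gene, was 1 of 9 gibberellin metabolism genes called. It averaged 4.52 ± 1.56 CPM in XVE>>AXR3-1 against 12.5 ± 2.1 CPM, and 11 ± 2.57 CPM with PEO-IAA against 12.5 ± 2.85 CPM with mock (SD, n = 3 each), and its difference of 1.28 was called with the replicate block (edgeR adjusted p = 0.0204) and not without it (0.302). NPF3.1, a gibberellin transporter gene, rose 3.34-fold (edgeR adjusted p = 0.0119) as 1 of 11 perception and transport genes. Its AXR3-1 call held in 3 of 6 fits that left out a library. The difference of NPF3.1 was not called, also with the replicate block (edgeR adjusted p = 0.0922). Of 18 expansin genes EXPA17 rose, to 389, 340 and 338 CPM in XVE>>AXR3-1 against 99.3, 51.1 and 108 CPM in its Col-0 (4.13-fold, edgeR adjusted p = 0.00212), with 169, 88.4 and 129 CPM with PEO-IAA and 85.4, 72.5 and 91.8 CPM with mock (log2 estimate 0.63, SE 0.33). EXPA7 and EXPA18 fell and are counted among the root hair genes above. Of 10 ethylene genes ACS6 and ACO4 rose and ACS2 and ACS11 fell, and the differences of ACS2 and ACS11 were called with the replicate block. ACS11 had 0.119, 0.299 and 0.368 CPM in XVE>>AXR3-1 and 2.33, 3.45 and 2.1 CPM in its Col-0 (-3.26, SE 0.41, edgeR adjusted p = 2.78e-04), and 3.07, 6.43 and 4.85 CPM with PEO-IAA against 10.4, 13.5 and 8.50 CPM with mock (-1.17, SE 0.31, edgeR adjusted p = 0.951). Of 10 brassinosteroid genes BZR1, a transcription factor of the pathway, and BAS1, which inactivates the hormone, fell with AXR3-1 (log2 changes -0.76 and -1.40), and their PEO-IAA estimates were -0.02 and 0.01. The differences of both were called with the replicate block (edgeR adjusted p = 0.0377 for BZR1 and 0.0291 for BAS1). That block called 3 brassinosteroid genes lower (3.34%) and 2 higher (4.18%) with AXR3-1, and the list median without the block was 0.07. WRKY33 rose 2.77-fold (edgeR adjusted p = 0.00596) as 1 of 14 touch, wounding and jasmonate genes, with 75.2 ± 11 CPM in XVE>>AXR3-1 against 27.1 ± 3.02 CPM, where PEO-IAA and mock tips held 92.1 ± 25.1 and 88.7 ± 9.68 CPM (SD, n = 3 each). That list had medians of 1.06 with AXR3-1 and 0.42 with PEO-IAA, and its part in other results was not tested. Of 26 XTH, 9 proton pump, 11 heat shock and 11 cytokinin genes, 0 were called with PEO-IAA or AXR3-1 in edgeR without the replicate block. At an unadjusted p under 0.05 with AXR3-1, 7 XTH, 1 proton pump and 1 cytokinin genes were lower (4.53% of all genes) and 3 XTH genes higher (5.74%). The replicate block called 5 XTH, 2 proton pump and 1 cytokinin genes lower (3.34%) and 2 XTH genes higher (4.18%) with AXR3-1.

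Another set of libraries gave a further readout. These libraries entered the same estimate of the spread of each gene, so their p-values are not independent of the AXR3-1 calls. HS::AXR3-1, a line with AXR3-1 under a heat shock promoter, and Col-0 were both kept at 37 °C for 40 min and left for 80 min, and share no library with the groups above. Of the 266 genes lowered by estradiol-driven AXR3-1, 241 (90.6%) had an estimate below 0 there, against 46.8% of all genes, and 102 (38.3%) were lower at an unadjusted p under 0.05, against 1.62% of all genes. Of the 290 raised genes, 269 (92.8%) were above 0, against 53.2%, and 104 (35.9%) were higher, against 2.61%. HS::AXR3-1 itself had 5 genes called higher (0.0252%) and 0 lower in edgeR, with 518 and 320 at an unadjusted p under 0.05 and 23 and 12 in DESeq2. AXR3 had 181, 298 and 861 CPM in HS::AXR3-1 and 93.5, 149 and 143 CPM in heated Col-0, apart but widely spread and not called (log2 estimate 1.80, SE 0.38, edgeR adjusted p = 0.199). In the second tier 51 of 57 lower genes were below 0 and 27 of 27 higher genes above 0. None of the 5 genes called lower with both blocks was called there, and their libraries overlapped. IAA1 had 8.71, 5.45 and 2.37 CPM in HS::AXR3-1 and 7.88, 9.98 and 11.7 CPM in heated Col-0 (log2 estimate -0.84, SE 0.30, edgeR adjusted p = 0.940). The estimates of IAA2, AUF1, AT2G22460 and AT1G27670 were -0.39, -0.64, -0.50 and 0.09 (edgeR adjusted p = 1.00 for each). AT3G42800, which PEO-IAA lowered, had 6.76, 6.64 and 6.14 CPM in HS::AXR3-1 and 8.40, 6.80 and 7.11 CPM in heated Col-0 (log2 estimate -0.19, SE 0.18). Among the genes changed by AXR3-1 alone, AT5G18460 was called there (log2 estimate 0.73, edgeR adjusted p = 0.0382) and the others were not. Estimates for AT3G26490, SCPL11, AT1G73780, LRX3, AT2G46890 and IQD12 were 1.85, 0.64, 0.58, 0.48, 0.38 and 0.29. For AT3G58000, TBL21, ACS2, ROPGEF4 and AT1G52190 they were -1.56, -0.63, -0.30, -0.29 and -0.03. Libraries of AT2G46890, IQD12, ACS2 and AT1G52190 overlapped. IAA at 10 nM for 20 min used the same mock libraries as PEO-IAA. IAA1, IAA2, AUF1 and AT3G42800 had 82.5 ± 2.78, 221 ± 12.7, 196 ± 44.5 and 17.8 ± 3.94 CPM with IAA, against 23.9 ± 2.96, 108 ± 5.20, 65.3 ± 4.74 and 8.50 ± 1.75 CPM with mock (SD, n = 3 each), and all 4 were called higher in edgeR, as were 0.146% of the genes tested. The other 3 genes that PEO-IAA lowered were not called with IAA, with log2 estimates of 0.95 for AT2G22460, 0.39 for AT1G27670 and 1.05 for AT3G51410 (edgeR adjusted p = 0.885, 1.00 and 1.00). Over the genes that AXR3-1 lowered, with which the IAA groups share no library, 33 of 266 (12.4%) were higher with IAA at an unadjusted p under 0.05, against 2.29% of all genes, and 12 (4.51%) lower, against 1.11%. Over the raised genes 38 (13.1%) were higher and 30 (10.3%) lower.

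The auxin response elements were counted in the 300-base windows of all genes. The element TGTCTC was present in 13.7% of 19744 windows of tested genes and TGTCGG in 5.59%, both strands searched. The elements share their first letters and cannot match at the same place of a strand. Of the 57 second-tier lower genes 21 (36.8%) held TGTCTC, as did 46 of the other 209 genes lowered by AXR3-1 (22%), and 1 of the 27 second-tier higher genes (3.7%). TGTCGG did not follow that order, with 6 (10.5%), 25 (12%) and 0 of these genes. Either element was in 38.6% of the second-tier lower genes and 31.1% of the other lowered ones. Among genes raised by AXR3-1, 25 of 290 (8.62%) held TGTCTC and 5 (1.72%) TGTCGG, against 67 (25.2%) and 31 (11.7%) of the 266 lowered ones. Among the 12 genes changed by AXR3-1 alone, 2 held TGTCTC, TBL21 and ROPGEF4, both lowered. With the replicate block, 29 of the 120 genes lowered by AXR3-1 and differing held it (24.2%). A match is a run of letters in a window and not a site shown to be bound.

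**Figure D5:**
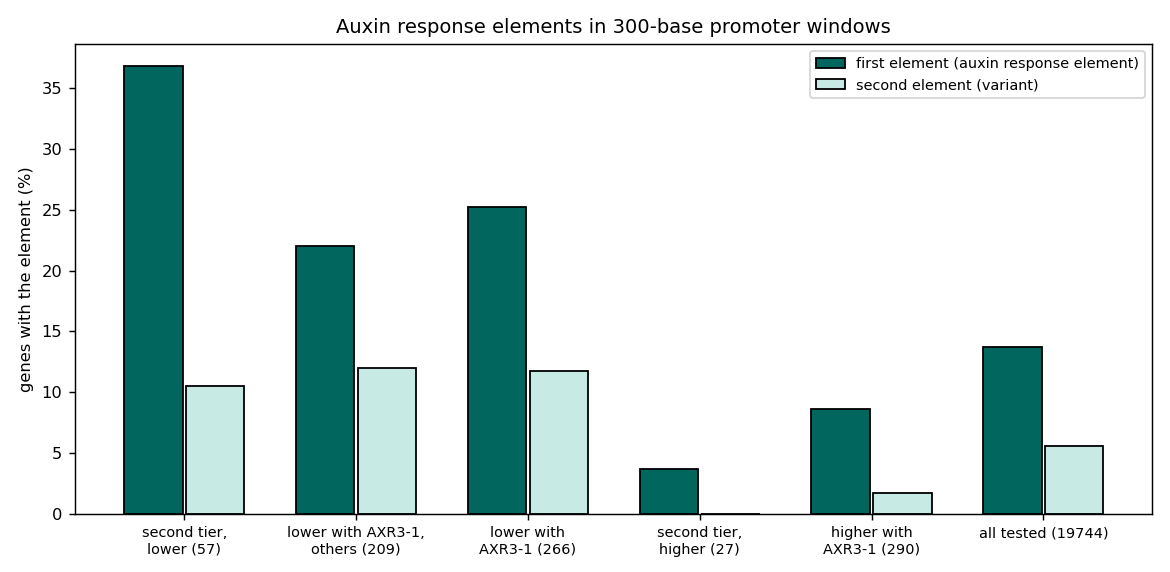
Percent of genes (y axis, from 0) whose promoter window held the auxin response element (dark bars) or its variant (light bars), for gene sets on the x axis with the number of genes in each. The share with the first element is 36.8% for genes lower with both blocks at the second tier and 13.7% for all genes tested. With the variant these shares are 10.5% and 5.59%.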

How the data were processed

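RNA-seq of root tips was read from estimated counts per transcript (expected counts) and TPM values that the authors deposited for each library, made with Salmon 1.3.0 on TAIR10 transcripts, per the submitters' processing notes. The strand option is not given in the sources used here, so overlapping, antisense and closely similar genes may share reads. The estimated counts were summed per locus (27586 loci) and rounded, which changed no library total by more than 2.3e-05%. The deposited TPM values and effective lengths served for checks and an alternative only. Counts were scaled by TMM and filtered by group, and 19809 genes were tested with edgeR 4.0.16 (R 4.3.3), by a quasi-likelihood test with a coefficient per group over all 21 libraries. P-values were Benjamini-Hochberg adjusted over all genes tested. The difference of effects was a single contrast of the 4 groups. CPM values are comparable between libraries for a gene and not between genes. The procedure was tested on simulated data. DESeq2 1.42.0, limma 3.58.1 (which edgeR uses), another scaling, no filter, robust variance, an offset for effective length, the 12 libraries alone, each library left out and the replicate number as a block were alternatives.

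Totals of 17.45 to 22.18 M reads in the 12 libraries compared gave a median standard error of 0.21 on the log2 scale for each effect and 0.30 for their difference. No pair of replicates agreed within counting noise (mean chi-square per gene 21.2 to 48.1). Replicate numbers come from the labels. Deviations from the group means correlated at 0.72, 0.63 and 0.53 between PEO-IAA and mock libraries of the same number and at 0.56, 0.49 and 0.70 between XVE>>AXR3-1 and estradiol-treated Col-0. The numbers were therefore taken to pair the samples in the replicate block, which is an alternative. The main test had no block, so calls given without the block leave the pairing out. The members and gene lists were chosen with earlier results of these data known. Named genes were AXR3, all genes called with both blocks, up to 8 second-tier genes per direction with no overlap by smallest PEO-IAA p, up to 8 genes per direction of those called with AXR3-1 and differing, at a mean of at least 5 CPM, all genes called with PEO-IAA only, and up to 2 called members of each list. Of the list names, DAO1, DAO2 and RSL3 matched no locus. Promoter windows were read from the TAIR10.1 genome and RefSeq annotation, since no promoter table was used here. Of 48071 transcripts matched by name to that annotation, 47875 (99.6%) had the deposited length.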

Additional observations from a re-analysis of the deposited data

How the results depend on the processing

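The replicate block moved most counts of calls: 11 genes lower with PEO-IAA, 828 higher and 661 lower with AXR3-1, 139 above and 136 below 0 for the difference, 9 lower with both blocks, 122 higher and 120 lower among those called with AXR3-1 and differing, and 139 higher and 117 lower at the second tier. Each gene called without the block was also called with it, LRX3 left the differing genes because its PEO-IAA unadjusted p came under 0.05, and the block took away no other call. With DESeq2 the counts were 2 higher and 21 lower with PEO-IAA, 473 higher with AXR3-1, 66 above and 53 below 0 for the difference, 15 lower with both, and 47 higher and 59 lower called with AXR3-1 and differing. With the 12 libraries alone, 2 lower genes were called with AXR3-1 and differing and 45 higher genes made the second tier. Median-of-ratios scaling gave 3 lower differing genes. The effective length offset gave 1 gene higher with PEO-IAA, 3 above 0 for the difference and 2 lower differing genes. The cause of these shifts was not tested.

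Leaving out 1 library at a time gave 3 to 7 genes lower with PEO-IAA, 106 to 292 higher and 138 to 311 lower with AXR3-1, 0 to 38 above and 2 to 13 below 0 for the difference, 2 to 5 lower with both, 1 to 11 higher and 0 to 33 lower among the differing genes, and 12 to 37 higher and 37 to 58 lower at the second tier. The lowest AXR3-1 counts came without estradiol-treated Col-0 replicate 2 (106) and XVE>>AXR3-1 replicate 1 (138). With the block as well, an alternative chosen after seeing the data, the ranges were 6 to 137 and 16 to 78 for the difference, 1 to 8 for both, 12 to 69 and 5 to 117 for the differing genes, 50 to 137 and 67 to 105 for the second tier, 346 to 811 and 261 to 631 for AXR3-1 and 2 to 9 for PEO-IAA lower. Of 166 log2 values of 56 named genes, 0 of 2488 alternative values reversed a called direction. With 3 libraries per group, a difference between effects has a wide interval. Many genes called with AXR3-1 and not called with PEO-IAA were therefore not shown to differ.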

Other observations

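Genes annotated with the domain DUF241, whose function is not described in the annotation, were noticed after their values were seen. Of 11 tested, 10 had PEO-IAA estimates below 0 and 11 had AXR3-1 estimates below 0, as did 48.7% and 53.7% of all genes tested. AXR3-1 lowered 7 of them (1.34% of all genes tested) and raised 0, and PEO-IAA gave 6 lower (0.772%) and 0 higher at an unadjusted p under 0.05. The second tier, with 57 lower genes out of 19809 tested, held 5 of them, namely AT1G76220, AT2G17070, AT2G17080, AT4G35200 and AT4G35210. AT4G35200 had log2 changes of -1.92 with PEO-IAA and -3.29 with AXR3-1 (edgeR adjusted p = 0.00209). AT1G76240 and AT4G35660 were lowered by AXR3-1, at -2.26 and -2.94, with PEO-IAA estimates of -0.38 and -0.14, and their differences of 1.88 and 2.80 were not called without the replicate block (edgeR adjusted p = 0.143 and 0.170) and were called with it (0.0314 and 0.0452). Several of these genes are neighbouring paralogs that may share reads, so the values of single members are uncertain and the members are not independent.

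AT1G64795, an uncharacterized gene, had 196 counts in XVE>>AXR3-1, at 4.15, 3.93 and 2.16 CPM, and 0 counts with PEO-IAA, with mock and in estradiol-treated Col-0. Against a floor of 3 counts over the Col-0 group, it was at least 72.5-fold higher in XVE>>AXR3-1, and its fitted log2 change of 9.14 is no bound. For this gene too, AXR3-1 and the transgenic line itself cannot be told apart.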
